A study of Schizosaccharomyces pombe with 3 samples.

Results

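The long intergenic regions of the fission yeast Schizosaccharomyces pombe are the gaps of over 2000 bp between neighbouring protein-coding transcripts, outside the centromeres and the ribosomal DNA ends of chromosome III. There were 259 of them among 3937 intergenic regions. They were taken from the RefSeq annotation of the assembly ASM294v3 without regard to any read count, and cut into 200 bp windows. Of 3935 windows, 3390 had at least 90% of their positions at the start of a unique 45-base sequence and were used. A further 545 windows, 13.9%, were left out as repeated sequence.

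Chromatin immunoprecipitation sequencing (ChIP-seq) had been done on 3 libraries of growing haploid cells of strain 972 h-, all collected in log phase in YEA medium with 2% glucose. The Pol II library came from untagged cells and the antibody 4H8, which binds the C-terminal domain of the largest subunit of RNA polymerase II, with Protein G beads. For the Med7 library, the cells carried a TAP tag, an affinity tag, on the Mediator subunit Med7, and chromatin was recovered on IgG Sepharose beads. The bead control was untagged chromatin on beads with no antibody, so the Med7 library differs from it in the tag and in the beads as well. Each group has 1 library, so no difference has a replicate check and no p-value across conditions is given. In these bulk samples, binding in fewer cells and less binding per cell cannot be told apart.

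Mediator is a large complex that links transcription factors at upstream sequences to Pol II at the core promoter, and Med7 is one of its middle-module subunits. Most fission yeast genes lie close together, with short promoters. Long gaps are known at genes that respond to nutrients, mating or cell surface programmes, and they often carry long non-coding RNAs (lncRNAs). At the phosphate genes pho84 and tgp1, transcription of an upstream lncRNA, prt2 or nc-tgp1, is known to keep the downstream gene low while phosphate is plentiful.

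Of the windows shown here, the first pair are the highest Pol II windows of the gaps that lead for Pol II, 1 per gap. The next rank highest for Med7. Each rank is by the lower bound of the interval of the fold over the bead control. Windows are numbered along the plus strand from the left edge of the gap, whose bounding genes give it its name. All sequences are the plus strand of ASM294v3, 5′ to 3′, in lower case, with capitals marking a match on either strand to any of 8 short motifs described with the other motif results.
plb1 / ptl3 window 2, chrI:1076894-1077093: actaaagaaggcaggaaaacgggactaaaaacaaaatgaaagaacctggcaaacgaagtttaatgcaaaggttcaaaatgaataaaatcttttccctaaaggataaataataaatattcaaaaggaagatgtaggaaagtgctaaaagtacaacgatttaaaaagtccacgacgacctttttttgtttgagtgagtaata
csx1 / SPAC17A2.10C window 9, chrI:3573946-3574145: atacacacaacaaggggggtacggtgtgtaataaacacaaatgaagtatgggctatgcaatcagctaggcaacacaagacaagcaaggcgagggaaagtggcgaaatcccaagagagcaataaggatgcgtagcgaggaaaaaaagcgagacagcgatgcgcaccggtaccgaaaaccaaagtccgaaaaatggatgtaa
SPAC869.03C / yhb1 window 11, chrI:5516866-5517065: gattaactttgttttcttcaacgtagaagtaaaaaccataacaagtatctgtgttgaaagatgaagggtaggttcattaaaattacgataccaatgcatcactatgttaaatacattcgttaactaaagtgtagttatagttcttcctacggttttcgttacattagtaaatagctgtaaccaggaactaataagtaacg
SPAC27D7.11C / but1 window 5, chrI:4531867-4532066: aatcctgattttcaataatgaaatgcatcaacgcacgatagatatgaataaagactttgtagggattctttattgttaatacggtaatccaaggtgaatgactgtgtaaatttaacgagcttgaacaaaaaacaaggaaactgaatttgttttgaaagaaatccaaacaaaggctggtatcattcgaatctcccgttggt
pma1 / SPAC1071.13 window 3, chrI:3876512-3876711: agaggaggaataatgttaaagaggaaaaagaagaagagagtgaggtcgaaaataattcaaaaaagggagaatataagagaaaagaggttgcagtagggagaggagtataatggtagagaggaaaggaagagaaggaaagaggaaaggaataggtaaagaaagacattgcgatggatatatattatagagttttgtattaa
None of these 5 windows held any of the 8 motifs. The window in the plb1 / ptl3 gap held 887 Pol II reads and 19 Med7 reads, against 22 reads in the bead control. The window in the csx1 / SPAC17A2.10C gap held 216 Pol II and 19 Med7 reads, against 5 bead control reads. The Med7 windows rest on far fewer reads, and their ranks rest partly on low bead control counts. The median long-gap window held 12 Med7 and 8 bead control reads. The window in the gap of yhb1, the gene of a nitric oxide dioxygenase, had 18 Pol II and 31 Med7 reads, against 3 in the bead control. The window in the SPAC27D7.11C / but1 gap had 19 Pol II and 20 Med7 reads, against 1. The window upstream of pma1, which encodes the plasma membrane proton pump, had 11 Pol II and 13 Med7 reads, against 0, so no fold is given for it.
Next come a pair of windows that hold ATGACGT, a form of the cyclic AMP response element bound by the stress factor Atf1. They are among those with the highest lower bound of the Med7 fold. Other windows with ATGACGT held more Med7 reads, such as 32 in aat1 / pfl7 window 16.
gsf2 / SPCC1795.12C window 8, chrIII:967413-967612: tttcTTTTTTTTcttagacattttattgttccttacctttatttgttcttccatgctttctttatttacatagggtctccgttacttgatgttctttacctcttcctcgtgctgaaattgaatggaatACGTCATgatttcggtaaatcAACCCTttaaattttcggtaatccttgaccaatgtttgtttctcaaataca
gsf2 / SPCC1795.12C window 9, chrIII:967613-967812: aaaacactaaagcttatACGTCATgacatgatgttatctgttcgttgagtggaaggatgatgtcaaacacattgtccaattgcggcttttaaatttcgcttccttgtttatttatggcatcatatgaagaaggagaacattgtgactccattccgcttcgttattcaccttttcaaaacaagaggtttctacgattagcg
The gap upstream of gsf2, a flocculin gene, thus held matches in neighbouring windows 8 and 9, each as its reverse complement ACGTCAT. Window 8 also held an AACCCT box and a run of 8 T. It had 11 Pol II and 18 Med7 reads, against 2 bead control reads, and window 9 had 17 Pol II and 15 Med7 reads, against 2.

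The gaps were 2004 to 12283 bp long, with a median of 2673 bp, and 95 lay on chromosome I, 107 on II and 57 on III. Start faced start (divergent) in 135, 52.1% of them, against 34.7% of the 2561 shorter gaps of 200 to 2000 bp. A further 107 were tandem and 17 convergent. Base composition differed: the windows averaged 33.2% GC in long gaps, against 31.2% in shorter gaps and 37.5% in protein-coding transcripts. "Intergenic" means here only that no protein-coding transcript was annotated, since 77.1% of the windows overlapped an annotated non-coding RNA, against 68.7% in the shorter gaps. An LTR lay in 54 gaps, a tRNA in 22 and a pseudogene in 24, and 51 gaps lay within 100 kb of a chromosome end.

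Transporter and cell surface genes made up larger shares of the genes beside long gaps than of all genes. Of 490 bounding genes, 53 were annotated as transporters or permeases, 10.8% against 3.72% of all 5113 protein-coding genes. Cell surface and cell wall products made up 3.06% of bounding genes, against 0.802% of all. Transcription genes stood at 3.47% against 2.35%, kinases at 4.08% against 4.11%, and translation genes at 4.08% against 5.63%. These shares are descriptions, without a test.

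The Pol II library held 1687049 nuclear reads outside the ribosomal DNA, the Med7 library 696093 and the bead control 630819. A long-gap window held a median of 13 Pol II, 12 Med7 and 8 bead control reads. Levels are given in RPM per kb, where RPM scales each library to the same number of nuclear reads. Dividing the RPM of Pol II or Med7 by the bead control RPM at that place gives the fold. Intervals are exact conditional binomial 95% intervals for a fold, and 95% intervals from the 4 counts for a ratio of folds. These intervals describe counting error alone and leave out differences between libraries. They treat reads as independent molecules, which amplified reads without molecular identifiers are not, so they may be too narrow. Scaling the libraries instead to an equal median of 1 kb bins multiplies each Pol II fold by 1.40, a shift of 0.49 on the log2 scale, and each Med7 fold by 1.01. The ratios of folds between classes of windows do not depend on that choice.

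Long gaps were poor in Pol II and rich in Med7 compared with protein-coding transcripts. Pooled over the 3390 windows, they had 53.6 RPM per kb of Pol II and 87.8 of Med7, against 66.1 in the bead control. The fold was 0.81 for Pol II (interval 0.799 to 0.821), or 1.14 under equal medians, and 1.33 for Med7 (1.31 to 1.35). Transcripts had 89.4 RPM per kb of Pol II and 78.9 of Med7, with 87.6 in the bead control, so that the bead control differed more than Med7 did. Over the fold in transcripts, the long-gap fold was 0.794 for Pol II (0.783 to 0.806) and 1.47 for Med7 (1.45 to 1.50). Both intervals exclude 1.

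The comparison with shorter gaps was closer. Shorter gaps had folds of 0.865 for Pol II and 1.45 for Med7. The long-gap fold over the shorter-gap fold was 0.936 for Pol II (0.92 to 0.952) and 0.913 for Med7 (0.897 to 0.93). Away from the chromosome ends and the mating-type region, that ratio was 0.995 for Pol II (0.977 to 1.01), an interval that includes 1, while for Med7 it was 0.92 (0.901 to 0.938). Without the 5 long gaps highest in Pol II, a setting chosen after the values were seen, the Pol II ratio was 0.82 (0.806 to 0.835). All shorter gaps were kept there, so this setting could only lower the Pol II ratio. The size of the Pol II ratio thus depends on which gaps are kept, while the Med7 ratio was 0.92 or 0.913 under these settings.

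The windows themselves showed the same order. The median Pol II fold was 0.623 in long-gap windows, against 0.714 in shorter gaps and 0.764 in transcripts, and the median Med7 fold was 1.32, against 1.44 and 0.906. High windows are those whose fold was at least 2 and whose interval lay above 1, and low windows those whose fold was at most 0.5 and whose interval lay under 1. Only windows with at least 10 reads in the ChIP and control libraries together were judged. For Pol II, 151 of 3221 long-gap windows were high, 4.69%, against 7.52% of all windows of the genome, and 664 were low, 20.6% against 15.8%. High Pol II windows made up 4.71% in shorter gaps and 8.22% in transcripts, and low ones 15.6% and 16.2%. With equal medians the Pol II split was 246 high and 292 low windows, 7.64% and 9.07%, against 14.2% and 5.56% of the genome, so the excess of low over high calls depends on the scaling. For Med7, 388 of 3182 long-gap windows were high, 12.2% against 5.63% of the genome, and 48 were low, 1.51% against 5.93%. Equal medians gave 12.8% and 1.41%, against 5.81% and 5.58% of the genome. With duplicate reads counted once, 252 windows were high for Med7, 8.14% against 3.72% of the genome, and 21 low, 0.679% against 3.41%, while 435 were low for Pol II, 13.7% against 10.1%. Shorter gaps held a larger share of Med7-high windows, 15.5%, and transcripts a smaller one, 3.11%. The shares of Med7-low windows there were 0.916% and 7.36%.

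The length limit of the definition cut through a range in which Pol II varied. The 44 gaps just inside it, of 2000 to 2200 bp, had folds of 0.651 for Pol II and 1.36 for Med7. The 58 gaps just outside it, of 1800 to 2000 bp, had 1.05 and 1.40. Among longer gaps, Pol II stood at 0.869 in the 117 of 2200 to 3000 bp, at 0.84 in the 49 of 3000 to 4000 bp and at 0.782 in the 49 over 4000 bp, while Med7 stayed between 1.29 and 1.35. Without the 5 highest gaps the Pol II folds of these 3 classes were 0.668, 0.721 and 0.782, so their order depends on those gaps.

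Base composition moved with Med7 within the gaps as well. From the windows under 28% GC to those at 40% or more, in 5 classes, the Med7 fold in long gaps was 1.49, 1.45, 1.28, 1.19 and 1.15. In transcripts of the same classes it was 1.35, 1.23, 1.05, 0.873 and 0.695. The long-gap fold was above the transcript fold in each class, by a ratio of 1.10 (1.06 to 1.15) in the lowest class and 1.65 (1.58 to 1.73) in the highest. For Pol II, the long-gap fold was below the transcript fold in 4 of the 5 classes, with ratios of 0.559, 0.736, 0.872 and 0.75, and above it at 36 to 40% GC, with 1.04 (1.01 to 1.08). Without the 5 highest long gaps, and with all transcripts kept, the long-gap fold in that class was 0.706, under the 0.841 of transcripts.

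**Figure D1:**
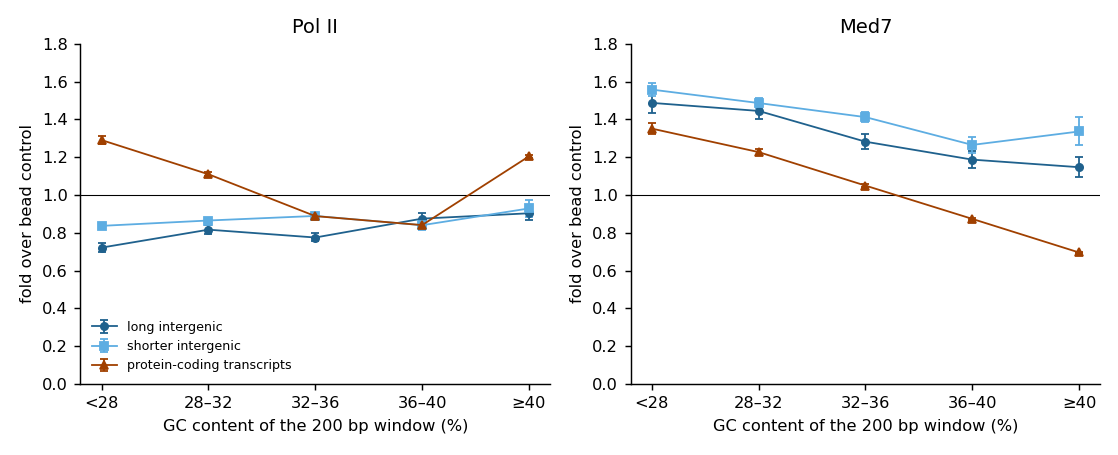
Pol II and Med7 folds over the bead control (vertical axis) by GC content of 200 bp windows (horizontal axis, percent), for long gaps, shorter gaps and protein-coding transcripts, with 95% intervals of counting error. The Med7 fold in long gaps falls to 1.15 at 40% GC or more, against 1.49 under 28%, and lies above that of transcripts in each of the 5 classes.

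Pol II in the gaps was highest next to gene starts, and Med7 was nearly flat along them. Within 200 bp of a start, 262 windows had 68.5 RPM per kb of Pol II and 83.2 of Med7, against 57.0 in the bead control, which gives folds of 1.20 (1.14 to 1.27) and 1.46 (1.38 to 1.55). Over 1000 bp from any start, 1709 windows had folds of 0.715 (0.701 to 0.73) and 1.29 (1.26 to 1.32). The near fold over the far fold was 1.68 for Pol II (1.59 to 1.78) and 1.13 for Med7 (1.07 to 1.20). The Med7 level itself was no higher near starts, at 83.2 RPM per kb within 200 bp against 86.5 to 90.7 in the 5 classes beyond 400 bp. The bead control was lower there, at 57.0 against 66.0 to 68.6 RPM per kb.

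Beyond 1000 bp the folds of both libraries differed little with distance, by ratios whose intervals include 1. The fold at 1000 to 1500 bp over that at more than 2000 bp was 1.02 for Pol II (0.968 to 1.07) and 0.993 for Med7 (0.945 to 1.04). The rise toward the start remained away from chromosome ends, at 1.63 for Pol II and 1.14 for Med7, and without the 5 highest Pol II gaps, at 1.51 (1.43 to 1.60) and 1.14. Without those gaps, however, the Pol II fold within 200 bp of a start was 0.971 (0.92 to 1.03) with equal totals, an interval that includes 1. Multiplying by 1.40 for equal medians puts it above 1.

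Against shorter gaps at the same distance, long gaps had more Pol II and less Med7 beside their starts. Within 200 bp the shorter gaps had folds of 0.853 for Pol II and 1.68 for Med7, and the long-gap fold over theirs was 1.41 (1.33 to 1.49) and 0.87 (0.819 to 0.924). Without the 5 highest long gaps, and with all shorter gaps kept, the Pol II ratio was 1.14 (1.07 to 1.20). Leaving out high gaps on 1 side only favours a lower ratio. The median window fold was 0.834 in long against 0.789 in shorter gaps, closer together than the pooled folds. At 600 to 1000 bp the order for Pol II was the opposite, with a ratio of 0.86 (0.828 to 0.894).

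**Figure D2:**
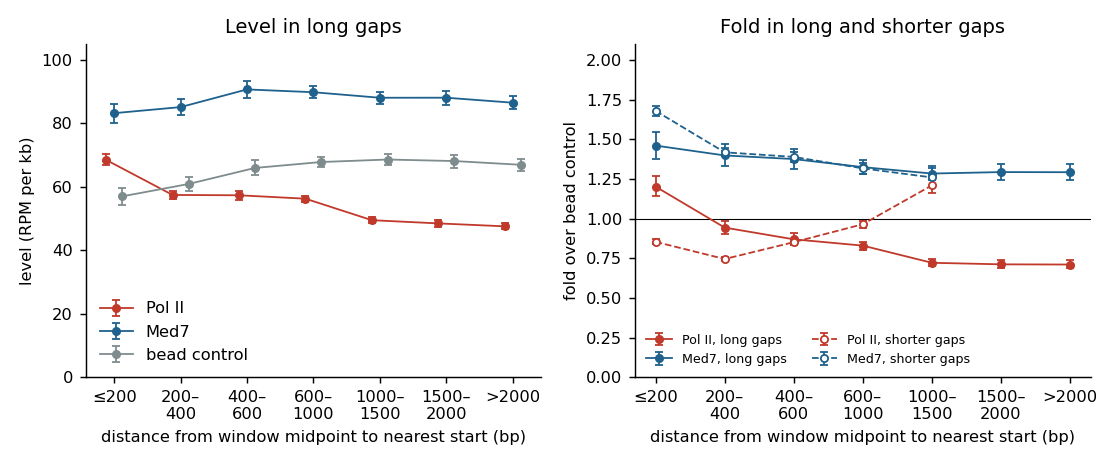
Levels of Pol II, Med7 and the bead control in long gaps (RPM per kb, one panel) and Pol II and Med7 folds over the bead control in long gaps (solid lines) and shorter gaps (dashed lines, the other panel), by distance of 200 bp windows to the nearest gene start (horizontal axes, bp), with 95% intervals of counting error. In long gaps the Pol II fold falls to 0.71 beyond 2000 bp, against 1.20 within 200 bp, while the Med7 fold stays between 1.28 and 1.46.

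Seen from the edges, pooled Pol II was highest in the first 100 bp, at starts and at ends of the bounding genes. Of the 518 edges, 377 were starts and 141 were ends. The first 100 bp outside a start had 82.7 RPM per kb of Pol II and 84.7 of Med7, against 58.5 in the bead control, a Pol II fold of 1.41 (1.33 to 1.50). The first 100 bp outside an end had 87.7 and 104.7, against 78.7, a Pol II fold of 1.11 (1.02 to 1.22). With equal totals the median edge had a Pol II fold under 1, at 0.972 for starts and 0.886 for ends. Multiplying by 1.40 for equal medians puts both above 1. Without the 5 highest Pol II gaps the pooled folds were 1.25 at starts and 1.04 at ends. The first 200 bp over the stretch of 1000 to 1500 bp gave a Pol II ratio of 1.64 (1.55 to 1.74) at starts and 1.31 (1.20 to 1.43) at ends, or 1.53 and 1.55 without those gaps. For Med7 the ratio was 1.15 (1.08 to 1.23) at starts and 0.97 (0.879 to 1.07) at ends, where the interval includes 1.

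The position of an annotated start depends on whether a 5′ untranslated region was annotated. Of the 377 starts, 89 had none, so that the gap begins at the coding sequence. The 200 bp outside starts with such a region had folds of 1.33 for Pol II (1.27 to 1.40) and 1.57 for Med7 (1.49 to 1.67), with 52.5 RPM per kb in the bead control. Outside starts without one, the folds were 0.95 (0.864 to 1.04) and 1.14 (1.03 to 1.27), with 76.9 RPM per kb in the bead control. GC content was 36.1% outside starts with such a region and 31.2% outside those without, and its part in the difference was not tested.

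Across edges, the Pol II next to a gene went with the Pol II in its body. For 327 starts, the log2 fold in the first 400 bp of the gap and in the gene body had a Pearson r of 0.63 and a Spearman coefficient of 0.52, and for 107 ends 0.73 and 0.64. With Med7 in the gap the values were 0.16 and 0.15 at starts and 0.12 and 0.17 at ends. All points share the same 3 libraries, and the gap and gene body values share the bead control. The 400 bp also adjoin the gene body, so fragments of 145 bp can span the border, and their part was not tested. The bounding genes themselves were spread more widely than most: 72 of 429 had a Pol II fold of 2 or more in their body, 16.8% against 6.86% of all genes, and 72 had 0.5 or less, 16.8% against 11.6%. With equal medians these were 104 genes, 24.2% against 11.3%, and 27 genes, 6.29% against 1.49%.

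**Figure D3:**
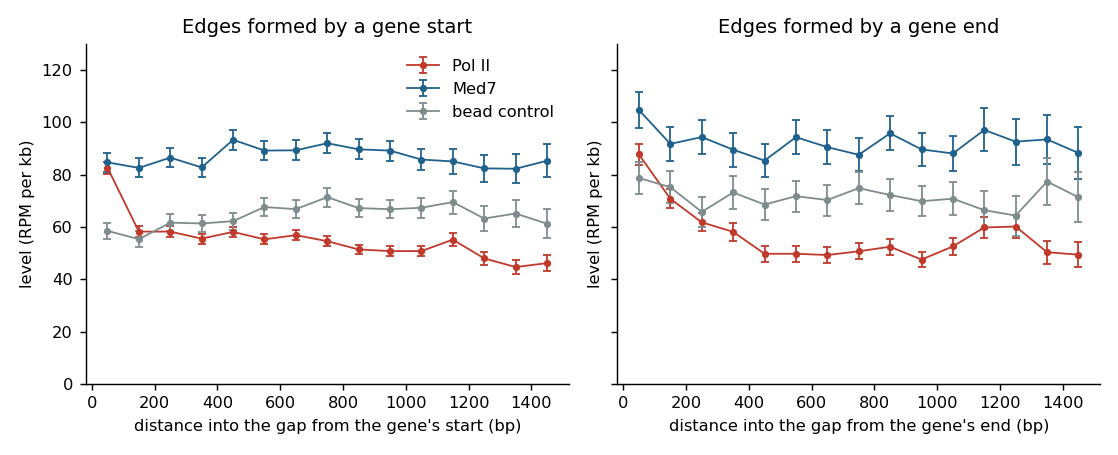
Levels of Pol II, Med7 and the bead control (vertical axis, RPM per kb) in 100 bp steps from the edge of long gaps (horizontal axis, bp into the gap), for edges that are gene starts and gene ends, with 95% intervals of counting error. Pol II is highest in the first 100 bp, at 82.7 RPM per kb outside starts and 87.7 outside ends, where the bead control has 58.5 and 78.7.

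Gap by gap, Pol II was below the bead control in most with equal totals and far above it in a few, and Med7 was moderately above it in most. In 218 gaps with at least 10 usable windows, the Pol II level was 24.6 RPM per kb at the lowest, 39.7 at the median and 640 at the highest. The Med7 level was 51.0, 88.2 and 128 RPM per kb in the same order, and the bead control 31.7, 65.2 and 102. The Pol II fold ranged over 0.300, 0.644 and 7.46, and the Med7 fold over 0.738, 1.33 and 2.56. For Pol II the interval lay above 1 in 14 gaps, 6.42% against 15.7% of genome stretches of 2600 bp, and under 1 in 156, 71.6% against 56.2%. With equal medians it lay above 1 in 42 gaps, 19.3% against 34.4%, and under 1 in 67, 30.7% against 16.3%. For Med7 it lay above 1 in 130 gaps, 59.6% against 10.7% of the stretches, and under 1 in 1, 0.459% against 11.1%.

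Windows of one gap differed as well, with a median SD of the log2 fold of 0.86 for Pol II and 0.87 for Med7. Of the Pol II-high windows, 104 of 151 stood in 26 runs of neighbouring high windows, while for Med7 only 99 of 388 did, in 45 runs. A Pol II-high window was found in 62 gaps and a Med7-high window in 187. Neither these counts nor those of runs were made for the genome, so nothing is read from them. The classes overlapped in 30 windows, 19.9% of those high for Pol II and 7.73% of those high for Med7. Of all judged long-gap windows, 12.2% were high for Med7 and 4.69% for Pol II. Both folds share the bead control reads, so a low control count raises both.

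**Figure D4:**
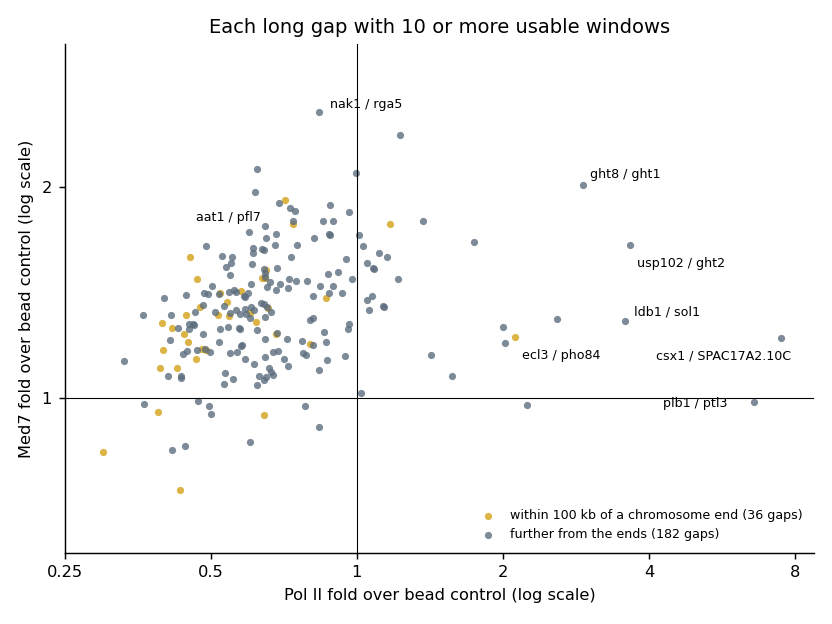
Each point is 1 long gap with at least 10 usable windows, with its Pol II fold and its Med7 fold over the bead control on log axes. Most gaps lie near the medians of 0.644 for Pol II and 1.33 for Med7, and 10 gaps reach a Pol II fold of 2 while 5 reach a Med7 fold of 2.

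The 10 gaps at 2-fold or more for Pol II, 4.59% against 5.37% of genome stretches, were led by csx1 / SPAC17A2.10C at chrI:3572346-3574994. csx1 encodes an RNA-binding protein of the oxidative stress response. This gap had 614 RPM per kb of Pol II and 100 of Med7, against 82.3 in the bead control, folds of 7.46 (6.28 to 8.94) and 1.22 (0.967 to 1.53). All 13 windows were high for Pol II, and most lie over SPNCRNA.3597 and SPNCRNA.3598, lncRNAs on the strand opposite to the bounding genes. The body of csx1 had a Pol II fold of 4.70.

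The gap plb1 / ptl3, at chrI:1076694-1079634, was next, between genes of a lysophospholipase and a triacylglycerol lipase. It had 640 RPM per kb of Pol II and 95.9 of Med7, against 97.4 in the bead control, a Pol II fold of 6.57 (5.63 to 7.71). Its Pol II lay in the 5 windows beside the plb1 start, with 1742 RPM per kb of Pol II and 119 of Med7, against 163, folds of 10.7 (8.76 to 13.1) and 0.73 (0.54 to 0.985). SPNCRNA.2467, on the strand opposite to plb1, covers most of those windows and had a Pol II fold of 11.1, and the plb1 body had 14.3.

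Hexose transporter genes bounded another pair of these gaps. Between usp102 and ght2, at chrII:3424480-3427159, there were 198 RPM per kb of Pol II and 89.5 of Med7, against 54.3 in the bead control, a Pol II fold of 3.66 (2.94 to 4.60). Its 7 high windows ran inward from 80 bp outside the ght2 start, within the lncRNA SPNCRNA.6127 on the strand opposite to ght2. Between ght8 and ght1, at chrIII:228846-232287, there were 131 RPM per kb of Pol II and 89.998 of Med7, against 44.8. This gap was high for both libraries, with folds of 2.92 (2.36 to 3.65) for Pol II and 2.01 (1.57 to 2.59) for Med7. Its Pol II run of 1600 bp began at the ght8 start and had a fold of 5.15.

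In the gap between ldb1 and sol1, which encodes a subunit of the SWI/SNF chromatin remodelling complex, Pol II lay over known non-coding RNAs. The gap had 288 RPM per kb of Pol II and 104 of Med7, against 80.8 in the bead control, a Pol II fold of 3.56 (3.01 to 4.24). A run of 8 windows next to the sol1 end had 495, 92.5 and 108 RPM per kb for Pol II, Med7 and bead control. It covers mamRNA, a lncRNA that binds the meiotic regulators Mmi1 and Mei2, and snoU14, a small nucleolar RNA. The longer mamRNA transcript had 799 Pol II and 44 Med7 reads, against 48 bead control reads, a Pol II fold of 6.22 (4.65 to 8.51).

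The phosphate gene pho84 had its Pol II in the distant part of its upstream gap. The gap ecl3 / pho84, at chrII:4441828-4444100, had 149 RPM per kb of Pol II and 86.2 of Med7, against 70.6 in the bead control, a Pol II fold of 2.11 (1.70 to 2.65). Its run of 4 high windows had a Pol II fold of 3.29 (2.43 to 4.53) and covers the start of prt2, which lies 714 bp from the left edge. In the first 400 bp outside the pho84 start the Pol II fold was 0.852, and in the pho84 body it was 3.44. The gap lies within 100 kb of a chromosome end.

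The gap upstream of tgp1, which encodes a glycerophosphodiester transporter, had both kinds of run in different places. The gap, at chrII:352412-356583, had 131 RPM per kb of Pol II and 89.6 of Med7, against 83.4 in the bead control, with folds of 1.57 (1.35 to 1.84) and 1.07 (0.886 to 1.30). A Pol II run 600 bp from the tgp1 start, inside the 1822 bp covered by nc-tgp1, had a fold of 3.08 (2.09 to 4.70). A Med7 run of 4 windows, 972 bp from the start of SPBC1271.08C, had 41.5 RPM per kb of Pol II and 115 of Med7, against 29.7 in the bead control, a Med7 fold of 3.87 (2.18 to 7.31).

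The other gaps at 2-fold or more had Pol II folds of 2.00 to 2.58, and those named here are part of them. In SPAC26F1.11 / pyp1 a run near the start of pyp1, whose product dephosphorylates the stress kinase Sty1, had 3.11 (2.51 to 3.88). In rtn1 / but2 a run by but2 had 598 RPM per kb of Pol II and 73.6 of Med7, against 141 in the bead control, so Pol II was 4.25-fold and Med7 0.523-fold. In lcl3 / mrps26 the run covers snu5, the U5 spliceosomal RNA, which had 115 Pol II and 10 Med7 reads, against 7, a Pol II fold of 6.14 (2.89 to 15.6).

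**Figure D5:**
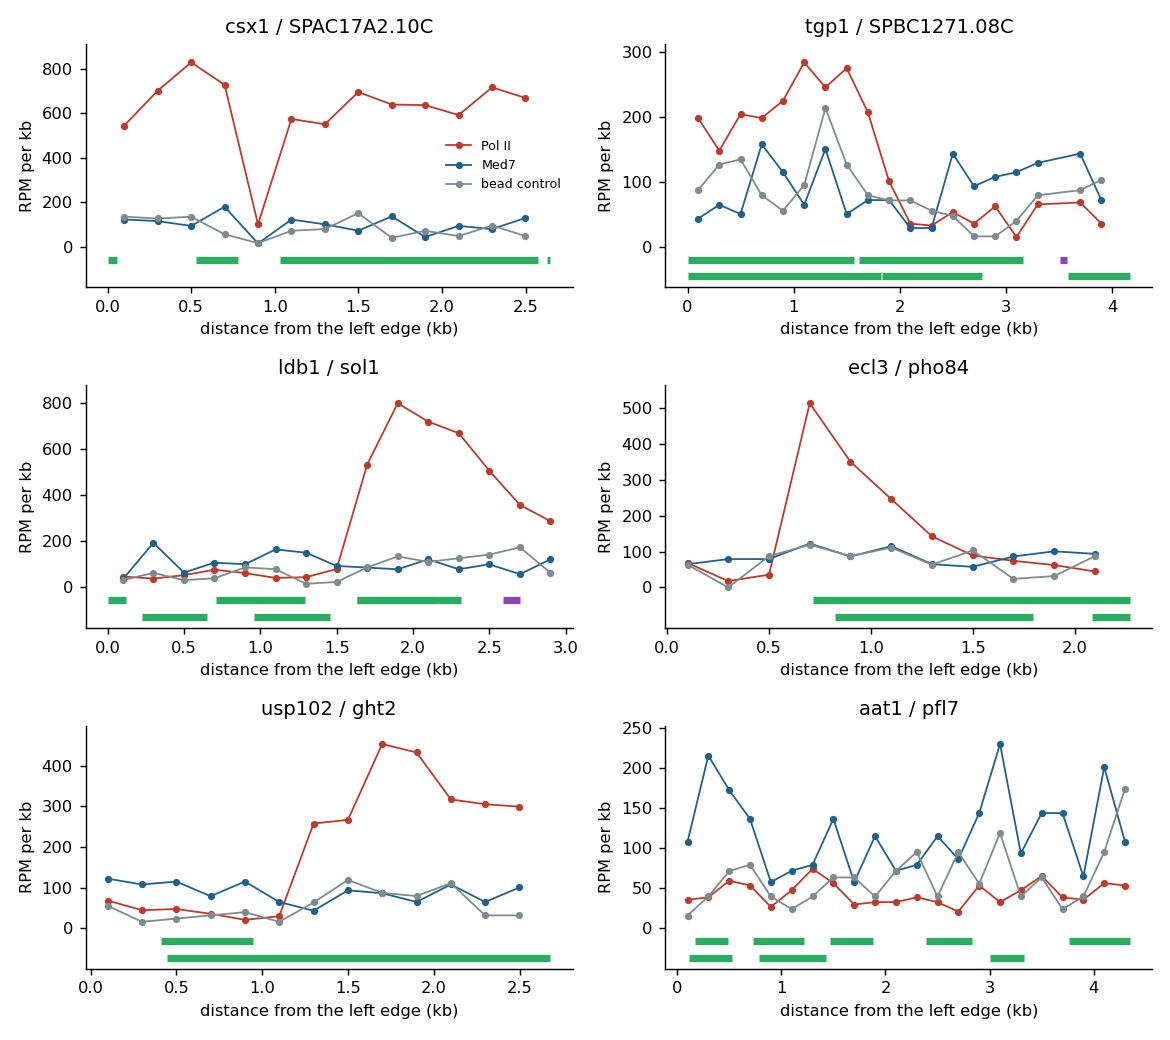
Levels of Pol II, Med7 and the bead control (vertical axis, RPM per kb) in the 200 bp windows of 6 long gaps by distance from the left edge (horizontal axis, kb), with annotated lncRNAs as green bars and other non-coding RNAs as purple bars, plus strand above minus strand. In csx1 / SPAC17A2.10C Pol II stands above the control in all 13 windows, while in the gaps of ght2, sol1 and pho84 it lies in runs, and in aat1 / pfl7 Med7 is the higher library.

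The gaps lowest in Pol II included those of the meiotic gene mei2 and of convergent gene pairs. SPAC186.03 / SPAC186.04C had 30.2 RPM per kb of Pol II and 84.0 of Med7, against 101 in the bead control, a Pol II fold of 0.300 (0.229 to 0.393). The gap of mei2, whose RNA-binding product switches cells into meiosis, had 33.8 and 116, against 102, a Pol II fold of 0.330 (0.261 to 0.419). Both had bead control levels far above the median of 65.2 RPM per kb, that of mei2 being the highest of the 218 gaps, and Pol II levels nearer to the median of 39.7. The others were fio1 / dal2 at 0.362, beside an iron transport oxidase gene, SPAPB1A11.02 / mca1 at 0.364 and SPBPB21E7.05 / aes1 at 0.389. Of these 5, 3 were convergent and 2 lay within 100 kb of a chromosome end.

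The highest Med7 folds were smaller and went with low bead control levels. Between nak1, the gene of a PAK-like kinase needed for polarised growth, and rga5 there were 34.4 RPM per kb of Pol II and 106 of Med7, against 41.2 in the bead control. The Med7 fold was 2.56 (1.86 to 3.59). All 10 highest Med7 gaps had a bead control level under the median of 65.2 RPM per kb, and 9 of them had a Med7 level above the median of 88.2. The share of 2-fold gaps was 2.29%, or 5 gaps, against 0.0218% of genome stretches, or 1.

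Among the others of this group, with Med7 folds of 1.87 to 2.12, were gmh6 / SPBC1289.14, ptr2 / ptk1, ght8 / ght1, nsk1 / sod2, nnk1 / sac32, aat1 / pfl7, SPBC36.02C / mfs3 and coq11 / lsm8. The gap between aat1, an amino acid permease gene, and pfl7, a flocculin gene, had 43.6 RPM per kb of Pol II and 119 of Med7, against 63.0, a Med7 fold of 1.90 (1.58 to 2.28). It held 8 Med7-high windows and no Pol II-high window. Its lncRNA SPNCRNA.4566, near the aat1 start, had 22 Pol II and 45 Med7 reads, against 7, the highest Med7 fold among the measured lncRNAs of the gaps at 5.83 (2.61 to 15.3).

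The longest Med7 runs had 4 windows. That at the start of the flocculin gene pfl4 had 33.3 RPM per kb of Pol II and 117 of Med7, against 21.8 in the bead control, a Med7 fold of 5.35 (2.80 to 11.3). The other was the one in the gap upstream of tgp1, nearer to SPBC1271.08C. The lowest Med7 folds were 0.738 (0.562 to 0.968) in SPAC186.07C / SPAC186.08C, 0.835 in SPAC186.03 / SPAC186.04C, 0.843 in any1 / Tf2-9, 0.854 in SPBC1773.03C / SPBC1773.04 and 0.865 in erv41 / tkt1. Only the first had an interval under 1.

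Among the longest gaps, SPBCPT2R1.04C / tlh2 with 12283 bp and tlh1 / SPAC212.08C with 6495 bp, both beside subtelomeric helicase genes, had 0 usable windows. zfs1 / SPBPB7E8.01, of 6775 bp, had folds of 0.661 for Pol II and 1.46 for Med7. gsf2 / SPCC1795.12C, of 6764 bp, had 44.6 RPM per kb of Pol II and 89.0 of Med7, against 67.3, folds of 0.664 and 1.32. SPBC1348.10C / SPBC1348.12, of 6739 bp near a chromosome end, had 0.392 and 1.10.

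Genes known for long upstream regions or for nutrient, stress or mating control were set apart as a list of 44, of which 43 were found. The start of 23 of them bounded a long gap, 53.5% against 7.37% of all protein-coding genes, a share from which nothing is read, because long upstream regions were among the grounds for the list. In their 27 measured gaps, the Pol II fold was 0.330 at the lowest, 0.646 at the median and 3.66 at the highest, and the Med7 fold 0.971, 1.28 and 2.01. The Pol II interval lay above 1 in 4 gaps and under 1 in 21 (5 and 10 with equal medians), and the Med7 interval above 1 in 16 and under 1 in 0. As shares these were 14.8% and 77.8% for Pol II, against 6.42% and 71.6% of all long gaps, and 59.3% for Med7, against 59.6%. The medians over all 218 gaps were 0.644 and 1.33.

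The 5020 bp gap upstream of ste11, the transcription factor that starts mating, had 31.7 RPM per kb of Pol II and 64.9 of Med7, against 54.8, folds of 0.577 and 1.18. The gap of fbp1, a gluconeogenic gene repressed by glucose, had 39.4 and 77.0, against 79.3, folds of 0.497 (0.397 to 0.623) and 0.971 (0.766 to 1.23). Its upstream lncRNAs fbp1-ot3 and fbp1-ot2, named after their values were seen, had Pol II folds of 0.458 and 0.344. The invertase gap inv1 / bdf1 had 0.671 and 1.08, and clg1 / scr1, beside the glucose repressor gene scr1, had 0.452 and 1.25.

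Other gaps of the list had Med7 folds on both sides of the median of all gaps. pfl3 / apl2, beside a flocculin gene, had folds of 0.744 for Pol II and 1.85 for Med7 (1.46 to 2.35), and mug146 / ght6 had 0.677 and 1.65 (1.26 to 2.18). The acid phosphatase gap pho1 / fub2 had 0.646 and 1.48 (1.23 to 1.79). SPAPJ695.01C / ght3 had 0.397 and 1.28, isp4 / rpl26 had 0.811 and 1.19, and git11 / gpd1 had 0.535 and 1.08. Pol II was below the bead control in each of these, although multiplying by 1.40 for equal medians puts pfl3 / apl2 and isp4 / rpl26 above 1.

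The lncRNAs in the gaps had a lower Pol II fold and a higher Med7 fold than lncRNAs of the genome as a whole. The genome set was not limited to intergenic lncRNAs, and ChIP reads carry no transcript strand. Reads from an overlapping protein-coding transcript would therefore count for a lncRNA of that set. Whether the difference belongs to the lncRNAs or to their place in gaps was not tested. The gaps held 610 annotated lncRNAs, 546 of them usable, with pooled folds of 0.807 for Pol II and 1.30 for Med7, against 0.881 and 1.00 for all 6754 usable lncRNAs of the genome. Of 521 measured with Pol II, 15 were high, 2.88% against 5.18% of all lncRNAs, and 158 low, 30.3% against 18.7%. With equal medians 36 were high, 6.91% against 10.6%, and 55 low, 10.6% against 4.58%. Of 517 measured with Med7, 66 were high, 12.8% against 4.59%, and 4 low, 0.774% against 3.53%. The 4 usable tRNA genes in the gaps pooled to 0.294 for Pol II and 0.617 for Med7, against 0.258 and 0.726 for the 23 of the genome.

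Pooled Pol II over lncRNAs differed with their place, mostly through the 5 highest Pol II gaps. ChIP reads do not show which strand is transcribed, and lncRNAs that overlap share reads. The strand classes below therefore describe where Pol II lay, not which RNA was made. Those nearest to a gene end and opposite in strand had a Pol II fold of 1.14, against 0.673 for those in the same strand. Without those gaps the values were 0.659 and 0.674, and the median lncRNA had 0.567 opposite and 0.606 in the same strand with all gaps kept. Nearest to a gene start, the folds were 0.868 for opposite and 0.643 for same strand, or 0.712 and 0.641 without those gaps. The Med7 folds of the 4 classes lay between 1.26 and 1.34. Named RNAs chosen after their values were seen were ter1, the telomerase RNA, with a Pol II fold of 0.405 (0.290 to 0.566), and omt3, a meiotic lncRNA, with 0.313 (0.223 to 0.439).

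Windows over an annotated non-coding RNA had a higher Pol II fold than those without, at a ratio of 1.18 (1.14 to 1.22), and about the same Med7, at 0.971 (0.937 to 1.01). More than 500 bp from any non-coding RNA, 235 windows had folds of 0.616 for Pol II and 1.26 for Med7. These differences depended on place. Away from the chromosome ends and the mating-type region the Pol II ratio was 1.03 (0.992 to 1.08), an interval that includes 1, and without the 5 highest Pol II gaps it was 1.05 (1.02 to 1.09). Over 1000 bp from a start it was 1.31 (1.25 to 1.38), and 1.16 (1.09 to 1.24) there when the ends were left out.

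Pol II was lowest in convergent long gaps. Pooled Pol II folds were 0.755 in divergent, 0.922 in tandem and 0.539 in convergent gaps, and Med7 folds 1.35, 1.31 and 1.23. The order of divergent and tandem gaps rests on the 5 highest Pol II gaps: without them the Pol II folds were 0.738 in divergent and 0.702 in tandem gaps, and the median windows had 0.623 and 0.655 with all gaps kept. Convergent long gaps differed most from shorter gaps of the same kind: the fold was 0.539 in long and 1.35 in shorter ones for Pol II, a ratio of 0.399 (0.373 to 0.426). That ratio rests on 191 long-gap and 442 shorter-gap windows, which were not matched for distance to gene ends. The part of single shorter gaps in it was not tested. The Med7 ratio of the same gaps was 0.965 (0.899 to 1.04). Near chromosome ends, Pol II stood at 0.576 against 0.868 elsewhere, a ratio of 0.664 (0.640 to 0.689), or 0.774 (0.746 to 0.804) without the 5 highest gaps, and Med7 at 1.28 against 1.34, a ratio of 0.954 (0.918 to 0.991).

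The letters of 8 short motifs were searched on both strands of every window. TATAAA, the TATA box, was in 32.4% of long-gap windows, against 39.2% in shorter gaps and 24.7% of all 200 bp windows of the genome. AAAAAAAA, a run of A, was in 23.7%, against 18.3% and 10.6%. The Atf1 element ATGACGT was in 0.885%, against 0.617% and 0.444%, the Ste11 box TTCTTTGTT in 1.86%, against 1.03% and 1.07%, and CCCCTC, bound by Rst2, in 2.77%, against 1.19% and 1.99%. AACCCT, the histone gene box, was in 6.64%, against 5.13% and 6.51%, ACGCGT, bound by the MBF factor of the cell cycle, in 1.03%, against 1.49% and 1.38%, and CAGTCACA, the HomolD box of ribosomal protein genes, in 0.324%, against 0.946% and 0.377%. No motif contains another in its letters on either strand, though neighbouring matches may share bases. A match says only that the letters are there.

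Ratios of folds, windows with a motif over those without it, were between 0.844 and 1.79 for Pol II and between 0.952 and 1.51 for Med7 over the 8 motifs, and some rested on few windows. With TATAAA over without it, the Pol II ratio was 0.864 (0.838 to 0.89) and the Med7 ratio 1.05 (1.02 to 1.09). Without the 5 highest Pol II gaps the Pol II ratio for TATAAA was 0.979 (0.949 to 1.01), an interval that includes 1. With a run of A it was 1.22 (1.18 to 1.26) for Pol II, or 1.07 (1.04 to 1.11) without those gaps, and 1.00 (0.967 to 1.04) for Med7. The median window had a Pol II fold of 0.623 with TATAAA and 0.638 with a run of A, against 0.623 in windows without each. The 30 windows with ATGACGT had folds of 1.45 for Pol II and 2.00 for Med7, with ratios of 1.79 (1.50 to 2.14) and 1.51 (1.25 to 1.82), and the Med7 over Pol II ratio was 0.841 (0.737 to 0.96). One window, over the start of prt2 in the ecl3 / pho84 gap, held 173 of their 611 Pol II reads, and without it the ratios were 1.42 (1.18 to 1.72) and 1.58 (1.30 to 1.93). Without the 5 highest Pol II gaps, and with 29 windows with the motif, they were 2.08 (1.74 to 2.48) and 1.49 (1.23 to 1.81). The median window with the motif had a Pol II fold of 0.848 and a Med7 fold of 1.82, against 0.623 and 1.32 without it. Their Med7 level was 83.3 RPM per kb against 87.8 without the motif, and the bead control 41.7 against 66.3. Their GC content was 40.1% against 33.2%, and the part of the control level and of base composition in the ratio was not tested. In 45 windows of shorter gaps with the motif, the ratio was 1.05 (0.916 to 1.19) for Pol II and 1.17 (1.02 to 1.34) for Med7. In long gaps, TTCTTTGTT had a Pol II ratio of 0.844 (0.76 to 0.938) in 63 windows, and CAGTCACA one of 1.64 (1.29 to 2.08) in 11, or 1.14 (0.882 to 1.48) without its highest window. In 69 windows of shorter gaps with CAGTCACA, its Pol II ratio was 1.58 (1.42 to 1.77). For the MBF, histone gene and Rst2 motifs in long gaps, the intervals of both ratios included 1. Leaving out the window with the most Pol II was chosen after the values were seen, and for the MBF motif it gave a Pol II ratio of 0.777 (0.67 to 0.902).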

How the data were processed

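Per the file headers and rows, the authors deposited 1 list of aligned reads per library, with chromosome, first and last base and strand as positions, with no counts, scores or scaling. Bowtie 0.12.7 is listed in the submitters' processing notes. Which genome build and how many mismatches were used is not given in the sources used here. Read as 1-based positions of ASM294v3, 0 reads of 45 bases began at a repeated 45-base sequence, so the reads were treated as uniquely placed. When the starts were moved by 1 base, 306 Pol II, 150 Med7 and 147 bead control reads did. Reads that repeat the position and strand of another made up 17.0% of the Pol II, 16.4% of the Med7 and 12.9% of the bead control library and were kept.

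Everything else was computed with scipy 1.17.1, numpy 2.4.6, pandas 2.3.3 and matplotlib 3.10.9 under Python 3.11.15. Reads were placed 72 bp downstream of their 5′ end, from the fragment length at which the strand cross-correlation of each library was highest. This was 145 bp in all 3 libraries. The cross-correlation there was 0.0653 for Pol II, 0.0048 for Med7 and 0.0034 for the bead control. Centromeres were taken as the longest span of each chromosome without a protein-coding gene, and the mating-type region as chrII:2114219-2133394. Groups follow the labels, with 1 library each, so each fold compares libraries, not conditions. The calling rule was tested on simulated counts. Alternatives were another scaling, duplicates counted once, reads not moved, fully unique windows, gaps over 3000 bp, 400 bp windows, gaps near chromosome ends left out, and at least 20 reads per window. Leaving out the 5 highest Pol II gaps, or the windows over pseudogenes, was added after the data were seen.

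Gaps named are the 5 longest, the 10 highest and 5 lowest in each ChIP library among those with at least 10 usable windows, and those beside the listed regulated genes. Windows named are the top 10, and non-coding RNAs the top 5, of each library. The members and lists were chosen with earlier results of these data known. Mitochondrial reads and windows of repeated sequence entered no fold. Some items that these rules name are not reported here.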

Additional observations from a re-analysis of the deposited data

Results flagged for a closer look

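The mitochondrial genome lay outside all comparisons of the long gaps. It took 7.73% of the aligned Pol II reads and 23.8% of the aligned Med7 reads, against 6.84% in the bead control. Both shares were above that of the bead control, which brought them here. Folds in the long gaps were computed over nuclear reads and do not include them. With 1 library per group the shares have no replicate check, and their part in the nuclear folds was not tested.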

How the results depend on the processing

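Of 137 recomputed values, 97 moved by less than the counting error or, for counts of windows, by less than 1.5 times. Fully unique windows, and leaving out windows over pseudogenes (added after the data were seen), moved none of the 15 values each. The cause of the moves below was not tested, except that fewer gaps or longer windows leave fewer windows to count. Under equal medians of 1 kb bins the Pol II fold turned to 1.14 over all long-gap windows, to 1.00 over 1000 bp from a start and to 1.18 over non-coding RNAs. It was 1.69 within 200 bp of a start and 0.865 over 500 bp from a non-coding RNA, with 246 high and 292 low Pol II windows and a Med7 over Pol II fold of 1.17 in place of 1.64. With the 5 highest Pol II gaps left out, added after the data were seen, Pol II was 0.971 within 200 bp of a start, with an interval (0.92 to 1.03) that includes 1, and was 0.710 pooled, 0.641 over 1000 bp away and 0.718 over non-coding RNAs, with Med7 over Pol II at 1.87. Away from chromosome ends and the mating-type region these Pol II folds were 1.30, 0.871, 0.796 and 0.875. That over 500 bp from a non-coding RNA was 0.836 (Med7 1.37), and Med7 over Pol II was 1.54. Of 2559 judged windows there, 31 were low for Med7, 1.21%. Duplicates counted once gave Pol II folds of 0.830 pooled, 0.758 over 1000 bp away and 0.667 over 500 bp from a non-coding RNA, Med7 over Pol II of 1.59, 435 Pol II-low windows, and 252 high and 21 low for Med7. Gaps over 3000 bp gave Pol II folds of 1.31 within 200 bp, 0.816 over and 0.655 over 500 bp from a non-coding RNA. For Pol II, 79 of their 1566 judged windows were high and 300 low, 5.04% and 19.2%. The main shares were 4.69% and 20.6%, and those of the genome 7.52% and 15.8%. For Med7, 172 of 1546 were high and 28 low, 11.1% and 1.81%. The main shares were 12.2% and 1.51%, and those of the genome 5.63% and 5.93%. Windows of 400 bp gave 0.559 over 500 bp from a non-coding RNA, and no window within 200 bp of a start. Of these longer windows, 67 of 1631 were Pol II-high, 4.11%, and 21 of 1630 were Med7-low, 1.29%. At least 20 reads gave 31 Med7-low windows of 1853, 1.67%, and reads not moved gave a Med7 fold of 1.32 within 200 bp of a start. Shares of the genome were not computed for 400 bp windows or for at least 20 reads.

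No paired analysis was possible because each group has 1 library, so leaving out a library in turn was not possible either. Depth limits single windows most: at a median of 8 bead control reads, a Med7 fold in 1 window carries a wide interval. Repeated sequence, including 13 gaps with 0 usable windows, was not analysed here. The Med7 library differs from the bead control in tag and beads as well as in Med7, and these cannot be told apart.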
